A study of Mus musculus with 24 samples.

Results

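The genes described here are interferon-induced genes, a set of 39 mouse genes known to be switched on by interferon, followed in digits of C57BL/6 (B6) and MRL/MpJ (MRL) mice after amputation. The set was chosen by symbol, with 1 probe set per gene, and 29 of the 39 could be measured, out of 14807 genes in the value table. Of the other 10, Ifit3, Oas3, Ifi47, Igtp and Eif2ak2 stood on probe sets that name several genes and are given no values. Isg15, Usp18, Ifi44, Xaf1 and Herc6 had no probe set in the table used and were not analysed here.

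Total RNA was measured on Affymetrix exon arrays, with 3 biological replicates in each of 8 groups, 24 arrays in all. The groups were C57BL/6 and MRL mice, all labelled wild-type and aged 3 to 4 months, at day 0, with unamputated digits, and at days 3, 7 and 14 after surgical digit amputation. For tissue, the labels name the second phalanx of middle digits of the hindlimb, and a separate note names the front part of such a digit. Both digits of an animal were taken, and the labels do not say whether RNA of several animals was joined in 1 array. The series sets regenerating against unamputated digits. Every sample is whole tissue with no sorting of cells.

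Interferons are secreted proteins by which cells warn each other of viruses and other danger. Type I interferons bind the receptor of Ifnar1 and Ifnar2, Janus kinases are activated, and a complex that holds STAT2 and IRF9 enters the nucleus and binds a DNA element called the interferon-stimulated response element (ISRE). Interferon gamma acts through its own receptor, and its target genes carry the gamma-activated site (GAS). The induced genes make antiviral proteins, sensors of foreign nucleic acid, GTPases that attack microbes inside the cell, and the parts of the proteasome and transporter that feed peptides to MHC class I. In healing skin, interferon-induced genes are known to be expressed by infiltrating leukocytes as well as by resident cells.

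The ISRE core, spelled GAAA, then 2 bases of any kind, then GAAA, was searched for on both strands in the RefSeq promoter windows of assembly GRCm38.p6, which run from 250 bases before to 50 bases after each gene start. A window was at hand for 22 of the 29 measured genes by symbol, and not for Dhx58, Mx2, Oas2, Parp14, Parp9, Rtp4 or Zbp1. The core was in the window of 8 of these 22 genes (Bst2, Gbp2, Gbp3, Ifih1, Ifit1, Irgm1, Rsad2 and Stat2), against 3.99% of all 27025 genes with a window and 3.44% of all 32851 windows. The GAS pattern TTCNNNGAA, which is its own reverse complement, was in the windows of 6 of the 22 (Bst2, Ifi35, Ifit2, Irf1, Psmb8 and Samhd1), against 9.55% of genes and 8.30% of windows. In Bst2 the patterns overlap by 3 bases. A match is a description of the letters, not evidence of binding.

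The stretches below, with the matches in capitals, belong to genes whose courses after amputation differ. Ifit1, Gbp2, Gbp3 and Irgm1 were still high at day 14 in B6, and Rsad2 was high at day 3. Irf1 is shown for its GAS pattern. Each is written 5′ to 3′ on the strand of its gene. Ifit1 is at chr19:34640765-34640833 on the plus strand, with its first match 104 bases before the start. Gbp2 is at chr3:142620584-142620633 and Gbp3 at chr3:142559979-142560034, both on the plus strand, 59 and 45 bases before their starts. Irgm1 is at chr11:48871421-48871470 and Rsad2 at chr12:26456543-26456592, both on the minus strand, 30 and 120 bases before their starts. Irf1 is at chr11:53769904-53769952 on the plus strand, 90 bases before the start.
Ifit1: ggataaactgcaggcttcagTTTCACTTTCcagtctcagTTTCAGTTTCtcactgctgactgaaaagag
Gbp2: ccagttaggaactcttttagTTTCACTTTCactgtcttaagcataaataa
Gbp3: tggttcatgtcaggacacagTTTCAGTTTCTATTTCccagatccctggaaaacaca
Irgm1: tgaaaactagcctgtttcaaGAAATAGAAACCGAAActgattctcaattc
Rsad2: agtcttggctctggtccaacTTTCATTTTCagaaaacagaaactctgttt
Irf1: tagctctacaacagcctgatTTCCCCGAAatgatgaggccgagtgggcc
Ifit1 has 2 separate ISRE cores. In Gbp3 and in Irgm1, 2 cores overlap, and Gbp2 and Rsad2 hold 1 core each.

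The arrays labelled MRL day 0 and MRL day 3 went against their labels. Il1b, a cytokine of wounds, had log2 levels of 5.64 to 6.40 in B6 day 0 and 11.70 to 11.89 in B6 day 3, but 10.06 to 10.32 in the arrays labelled MRL day 0 and 5.08 to 6.58 in those labelled MRL day 3. The hair keratin Krt31 ran the other way. The MHC class II gene H2-Ea kept to the strain. These 6 arrays are therefore called by their labels and described after the groups whose labels are not in doubt. Array medians of the deposited intensity lay between 141 and 181. Krt14 and Krt5 of the epidermis and Col1a1 and Col1a2 of bone and connective tissue were high in all 24 arrays, at log2 levels of at least 11.73, as the tissue label implies. The number of arrays limits the precision: the smallest two-sided p of an exact permutation test of 3 arrays against 3 is 0.1, so the calls below come from limma fitted over all arrays.

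By day 3 after amputation in B6, 23 of the 29 interferon-induced genes had risen, 0 had fallen and 6 did not pass (limma, Benjamini-Hochberg adjusted p under 0.05 over 15928 probe sets). Of all probe sets tested, 45.4% passed, 17.4% rising and 28.0% falling, or 22.6% and 21.7% after cyclic loess scaling. The median log2 difference over the 29 genes was 0.79, beside -0.08 over all probe sets. In a whole digit, a rise can come from more cells of a type or from more RNA per cell, and these cannot be told apart. Levels are given below as log2 of the deposited value, and differences as log2 with the standard error (SE). The background of the arrays was not measured here and is part of each level, which bears most on folds against low levels.

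**Figure D1:**
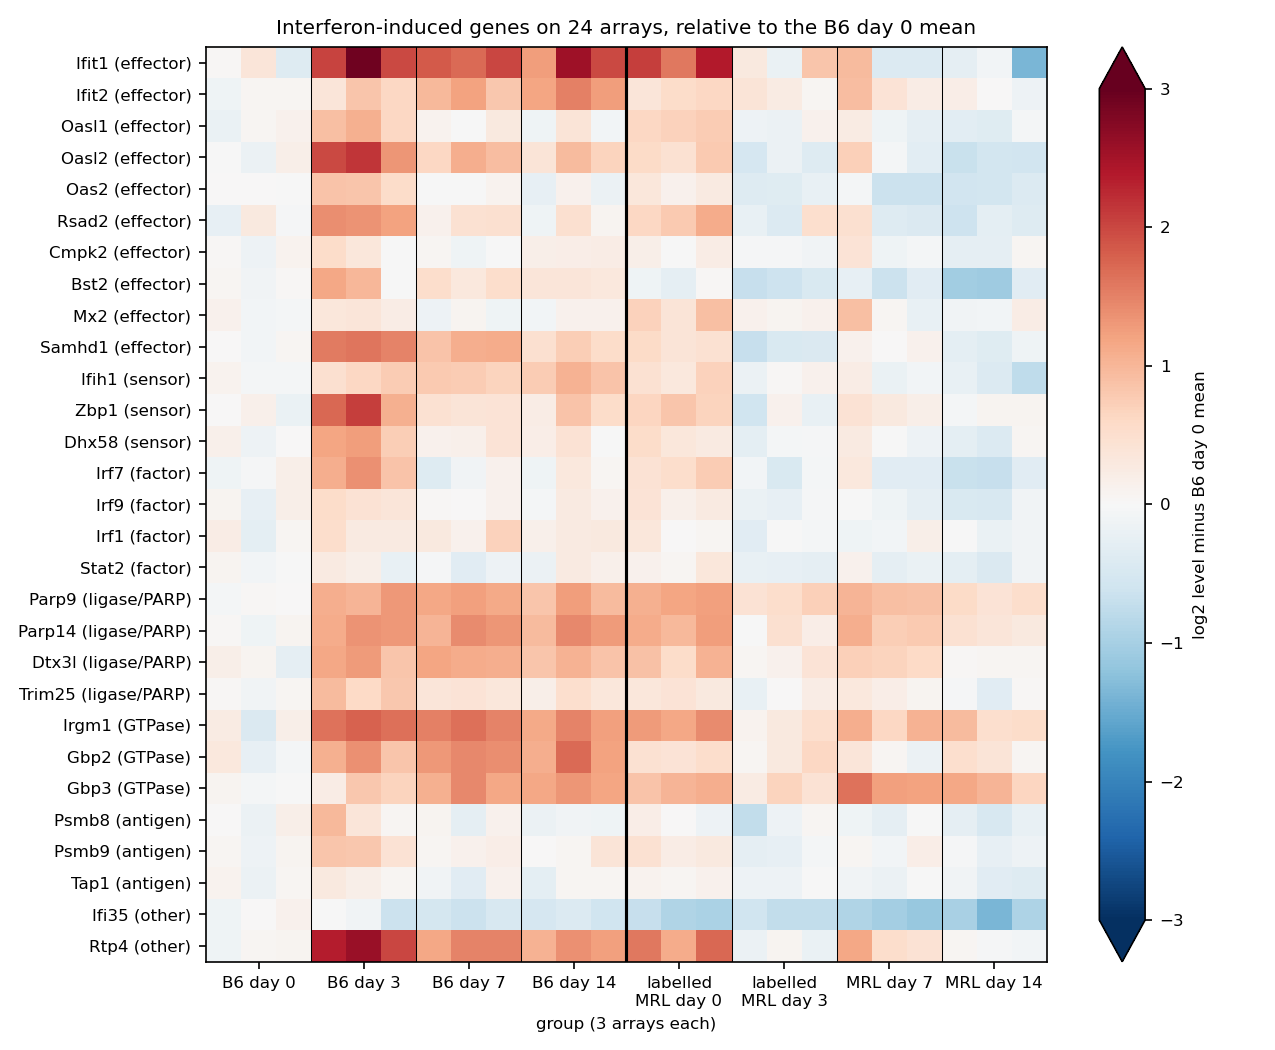
Log2 level of each of the 29 measured interferon-induced genes (rows, in order of role) in each of the 24 arrays (columns, by group), as the difference from that gene's mean over the 3 B6 day 0 arrays. The B6 day 3 arrays and those labelled MRL day 0 are high for most genes. The arrays labelled MRL day 3 and those of MRL day 14 lie nearer to B6 day 0 for most genes, but not level with it. By group means, Gbp3 and Parp9 are above it in both groups, and Ifi35, Bst2, Oasl2, Oas2 and Samhd1 are among those below it. MRL day 14 was not tested against B6 day 0.

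Among the antiviral effectors, 8 of 10 rose by day 3. Ifit1, which binds viral RNA that lacks the host cap mark, stood at 4.68, 5.02 and 4.27 in the B6 day 0 arrays and at 6.68, 7.56 and 6.62 at day 3. All 3 day 3 arrays lay above all 3 day 0 arrays, a difference of 2.30 ± 0.40 (SE, limma adjusted p = 9.44e-05), or 4.92-fold. Samhd1, which breaks down the nucleotides that viruses need to copy DNA, went from 8.95, 8.86 and 9.01 to 10.50, 10.55 and 10.43. Its replicates were close together and far from the other group, a rise of 1.55 ± 0.10 (limma adjusted p = 9.75e-11). Oasl2, a relative of the oligoadenylate synthases, went from 6.63, 6.46 and 6.82 to 8.63, 8.78 and 7.96, a rise of 1.82 ± 0.22. The lowest day 3 array was still above every day 0 array. Rsad2 (viperin), whose product makes a nucleotide that stops viral RNA synthesis, rose by 1.31 ± 0.23, from 6.12 to 6.65 in the day 0 arrays to 7.56 to 7.75.

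Oasl1 rose by 0.86 ± 0.15, Oas2 by 0.76 ± 0.13 and Ifit2 by 0.61 ± 0.16. Bst2 (tetherin), which holds budding viruses at the cell surface, rose by 0.71 ± 0.22 (limma adjusted p = 0.011). Its day 3 arrays did not agree among themselves: they stood at 9.21, 9.03 and 8.03, against 8.11, 7.94 and 8.07 at day 0, so the groups overlapped. Without the first or the second day 3 array the call on Bst2 was lost, with a lowest difference of 0.49 and a highest adjusted p of 0.0762. Cmpk2, a mitochondrial nucleotide kinase, and Mx2 did not pass, at differences of 0.30 ± 0.14 and 0.32 ± 0.19. Cmpk2 is the neighbour of Rsad2 on chromosome 12, and its log2 levels stayed between 6.12 and 6.83 in these 6 arrays. Mx2 was among the dimmest of the genes, at 4.14 to 4.59.

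All 3 sensors rose by day 3. Zbp1, which senses Z-form nucleic acid and can start necroptosis, stood at 6.18, 6.32 and 5.97 at day 0 and at 7.89, 8.24 and 7.22 at day 3, a rise of 1.63 ± 0.20 (limma adjusted p = 1.42e-06). The groups were well apart, and the spread among the day 3 arrays was the wider. Dhx58 (LGP2), a helicase that tunes the RNA sensors, rose by 1.05 ± 0.16. Ifih1 (MDA5), which detects long double-stranded RNA, rose by 0.63 ± 0.13, from 6.65 to 6.82 at day 0 to 7.20 to 7.47 at day 3.

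Of the 4 transcription factors, Irf7, Irf9 and Irf1 rose and Stat2 did not pass. Irf7, which amplifies the interferon response once it is made, stood at 7.30, 7.39 and 7.61 at day 0 and at 8.51, 8.80 and 8.29 at day 3, a rise of 1.11 ± 0.18 or 2.15-fold (limma adjusted p = 4.95e-05). Irf9, a DNA-binding partner of STAT2, rose by 0.45 ± 0.12. Irf1, an early factor of the interferon gamma response, was at the edge of the test, at 0.36 ± 0.14 (limma adjusted p = 0.0475). It lost the call without any 1 of 5 of the 6 arrays, with a lowest difference of 0.22. Stat2 differed by 0.08 ± 0.14.

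All 4 ubiquitin ligase and PARP genes and all 3 GTPases rose by day 3. Parp14, Dtx3l and Parp9 are neighbours on chromosome 16, Dtx3l and Parp9 make the 2 parts of a ligase complex, and Parp14 is another mono-ADP-ribosyltransferase. Parp14 went from 7.50, 7.32 and 7.55 to 8.58, 8.81 and 8.77, a rise of 1.26 ± 0.14. Parp9 rose by 1.13 ± 0.10 and Dtx3l by 1.09 ± 0.13, differences close to that of Parp14. Trim25, a ligase that acts with the sensor RIG-I, rose by 0.79 ± 0.12. Irgm1, a GTPase of defence against intracellular microbes, went from 6.26, 5.58 and 6.19 to 7.65, 7.77 and 7.67, a rise of 1.69 ± 0.16 or 3.22-fold. The guanylate-binding proteins Gbp2 and Gbp3, which coat the vacuoles of microbes, rose by 1.08 ± 0.18 and 0.57 ± 0.16.

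Of the 3 antigen processing genes, 1 passed by day 3, and all 3 did after cyclic loess or quantile scaling. Psmb9, an inducible subunit of the immunoproteasome, rose by 0.69 ± 0.12, from 7.77 to 8.01 at day 0 to 8.36 to 8.77 at day 3. Psmb8, another such subunit, differed by 0.47 ± 0.19 (limma adjusted p = 0.0551), with day 3 arrays at 8.14, 7.53 and 7.22 that ran into those of day 0. It was called at 0.70 after cyclic loess (adjusted p = 0.00184) and 0.63 after quantile scaling (adjusted p = 0.00342). Tap1, a subunit of the peptide transporter, differed by 0.18 ± 0.12, and was called at 0.38 (adjusted p = 0.00999) and 0.29 (adjusted p = 0.0407) after those scalings. Psmb9, Tap1 and Psmb8 lie next to each other on chromosome 17. Among the remaining genes, Rtp4, a Golgi chaperone that also inhibits some RNA viruses, had the largest difference of the set. It stood at 6.90, 7.07 and 7.10 at day 0 and at 9.37, 9.62 and 9.03 at day 3, a rise of 2.32 ± 0.18 or 4.98-fold (limma adjusted p = 2.26e-09). Ifi35 differed by -0.25 ± 0.14 (limma adjusted p = 0.149).

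From day 3 to day 7 in B6, 12 genes fell, 1 rose and 16 did not pass. Of all probe sets 21.2% passed, 4.17% falling and 17.0% rising, or 9.48% and 9.59% after cyclic loess scaling. After either cyclic loess or quantile scaling, 17 genes fell and 0 rose. The median difference of the set was -0.38, beside 0.08 over all probe sets. Irf7 fell the most, from the day 3 values above to 7.05, 7.32 and 7.55 at day 7. These arrays lay below all of day 3 and reached down to and below those of day 0, a difference of -1.23 ± 0.18 (limma adjusted p = 4.79e-05). Zbp1 fell by 1.21 ± 0.20, Rsad2 by 0.96 ± 0.23, Oasl2 by 0.95 ± 0.22 and Rtp4 by 0.94 ± 0.18. Dhx58, Oasl1, Oas2, Psmb9, Samhd1, Trim25 and Irf9 also fell, by 0.39 to 0.83. The calls on Irf9 and Trim25 were the weaker ones, lost in 4 and 2 of the 6 fits that left out 1 array, with a highest adjusted p of 0.0744 and 0.0702.

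Other genes did not pass between days 3 and 7. Parp14 stood at 8.48, 8.87 and 8.78 at day 7, overlapping its day 3 arrays, and differed by -0.01 ± 0.14. Parp9 differed by 0.05 ± 0.10, Dtx3l by 0.04 ± 0.13, Ifih1 by 0.11 ± 0.13 and Irgm1 by -0.14 ± 0.16. These errors leave room for small changes, so equal levels are not shown. Gbp3 went from 6.40, 6.98 and 6.84 to 7.23, 7.61 and 7.33, a difference of 0.65 ± 0.16 (limma adjusted p = 0.00471). It missed the threshold after cyclic loess scaling (0.51, adjusted p = 0.0771) and after quantile scaling (0.49, adjusted p = 0.0851).

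**Figure D2:**
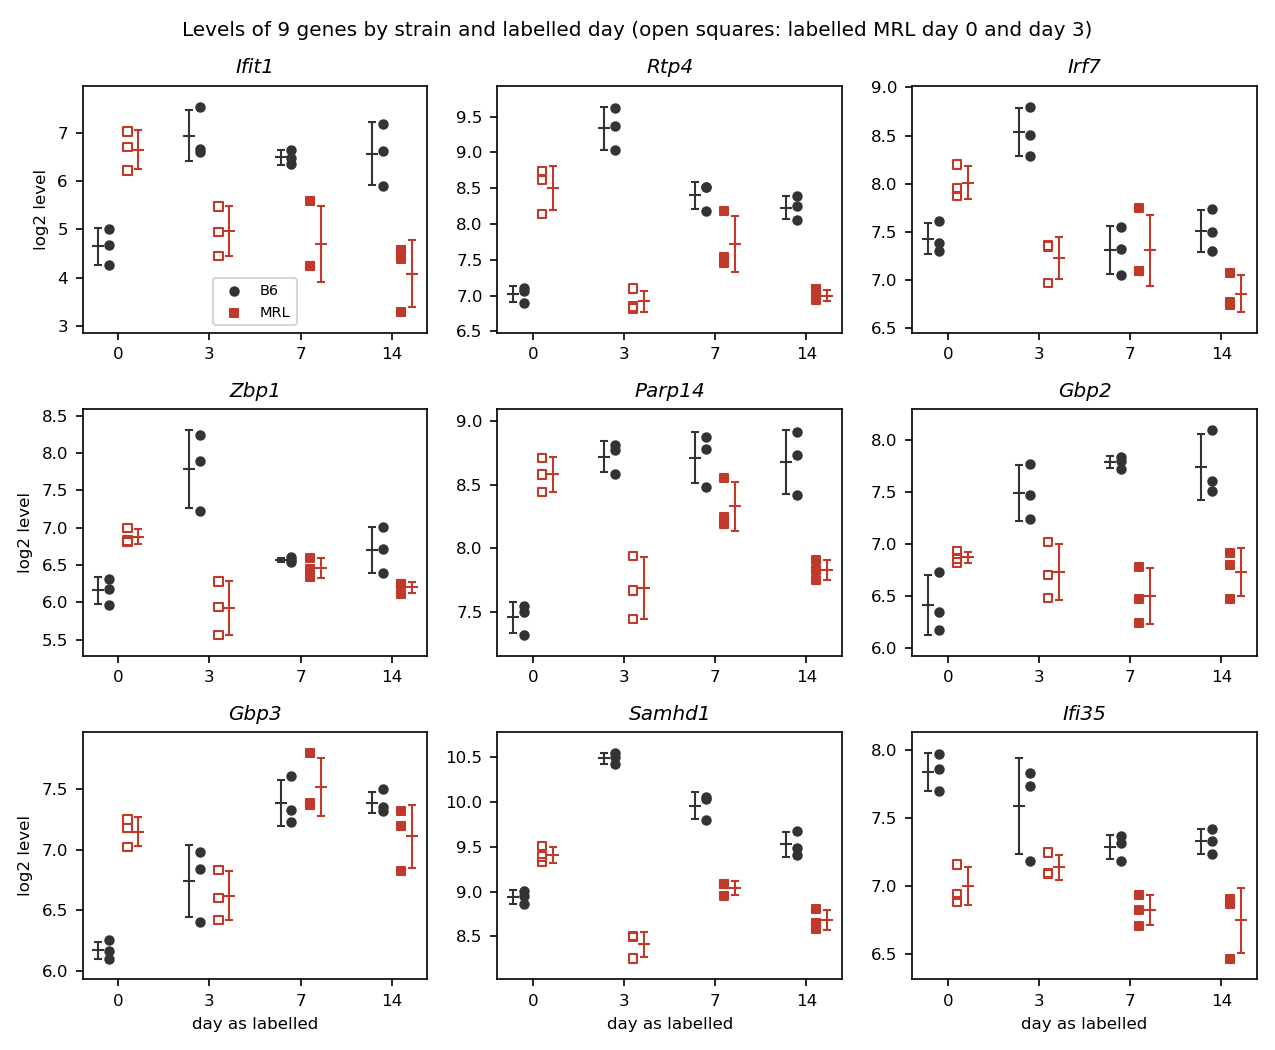
Log2 level (y axis) of 9 genes by labelled day (x axis), with a circle for each B6 array, a square for each MRL array, open where the label is in doubt, and bars of the group mean ± SD (n = 3). In B6, Irf7 and Zbp1 are highest at day 3 while Gbp2 and Gbp3 are still high at day 14, and all MRL day 14 arrays of Ifit1, Rtp4 and Gbp2 lie below those of B6.

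At day 7, 14 genes were higher than at day 0 in B6, 1 was lower and 14 did not pass. Of all probe sets 42.9% passed, with 23.5% higher and 19.4% lower, or 21.5% and 27.4% after quantile scaling. All 4 ligase and PARP genes and all 3 GTPases were higher, and 4 of 10 effectors, 1 of 3 sensors, 1 of 4 transcription factors and 0 of 3 antigen processing genes were higher. The factor was Irf1, whose call was lost in 4 of the 6 fits that left out 1 array (highest limma adjusted p = 0.263). That on Trim25 was lost in 1 of them. Ifit1 stood at 6.49, 6.36 and 6.65, all above its day 0 arrays, at a difference of 1.85 ± 0.40. Gbp2 stood at 7.72, 7.84 and 7.80, against 6.73, 6.17 and 6.34 at day 0, at 1.37 ± 0.18 (limma adjusted p = 4.33e-06). Irgm1 was higher by 1.55 ± 0.16, Parp14 by 1.25 ± 0.14, Gbp3 by 1.22 ± 0.16 and Parp9 by 1.18 ± 0.10. Irf7, at -0.12 ± 0.18 (adjusted p = 0.616), and Oas2, at 0.02 ± 0.13 (adjusted p = 0.904), were not called.

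At day 14 the counts were again 14 higher, 1 lower and 14 not passed, with 37.0% of all probe sets passing, 22.8% higher and 14.2% lower, or 19.6% and 25.9% after quantile scaling. Ifit2, a partner of Ifit1, stood at 7.53, 7.86 and 7.59, above every array of day 0 (6.22, 6.40 and 6.39) and of day 3 (6.70, 7.17 and 6.96). Its difference from day 0 was 1.32 ± 0.16 (limma adjusted p = 2.22e-06). Ifih1 stood at 7.47, 7.76 and 7.56, against 6.82, 6.65 and 6.65 at day 0, at a difference of 0.89 ± 0.13. For Ifit2 and Ifih1 the day 14 mean was the highest of the 4 B6 groups. Gbp2 was higher by 1.33 ± 0.18, Irgm1 by 1.29 ± 0.16, Parp14 by 1.23 ± 0.14 and Gbp3 by 1.22 ± 0.16. The day 14 calls on Zbp1, Oasl2 and Trim25 were lost in 4, 3 and 3 of the 6 fits that left out 1 array. Days 3, 7 and 14 share the day 0 arrays, so their differences from day 0 are not independent of each other.

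From day 7 to day 14 in B6, 1 of the 29 genes passed, beside 1.86% of all probe sets (1.46% higher, 0.402% lower, or 1.80% and 1.09% after cyclic loess scaling). Samhd1 fell by 0.44 ± 0.10 (limma adjusted p = 0.0168), from 9.80, 10.04 and 10.06 to 9.41, 9.68 and 9.49. The call was lost without any 1 of 4 arrays (replicate 2 or 3 of B6 day 7, replicate 1 or 3 of B6 day 14), leaving a count of 0. Ifi35 was the gene called lower than day 0 in B6. It stood at 7.70, 7.86 and 7.97 at day 0, at 7.32, 7.19 and 7.37 at day 7 and at 7.33, 7.42 and 7.24 at day 14. Every day 7 and day 14 array lay below every day 0 array, with differences from day 0 of -0.55 ± 0.14 and -0.51 ± 0.14. By their means, 20 genes were highest in B6 at day 3, 5 at day 7, 3 at day 14 and 1, Ifi35, at day 0. This ranks means without a test, and some are close: Parp14 stood at 8.72 at day 3 and 8.71 at day 7. The same count was not made over all probe sets.

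**Figure D3:**
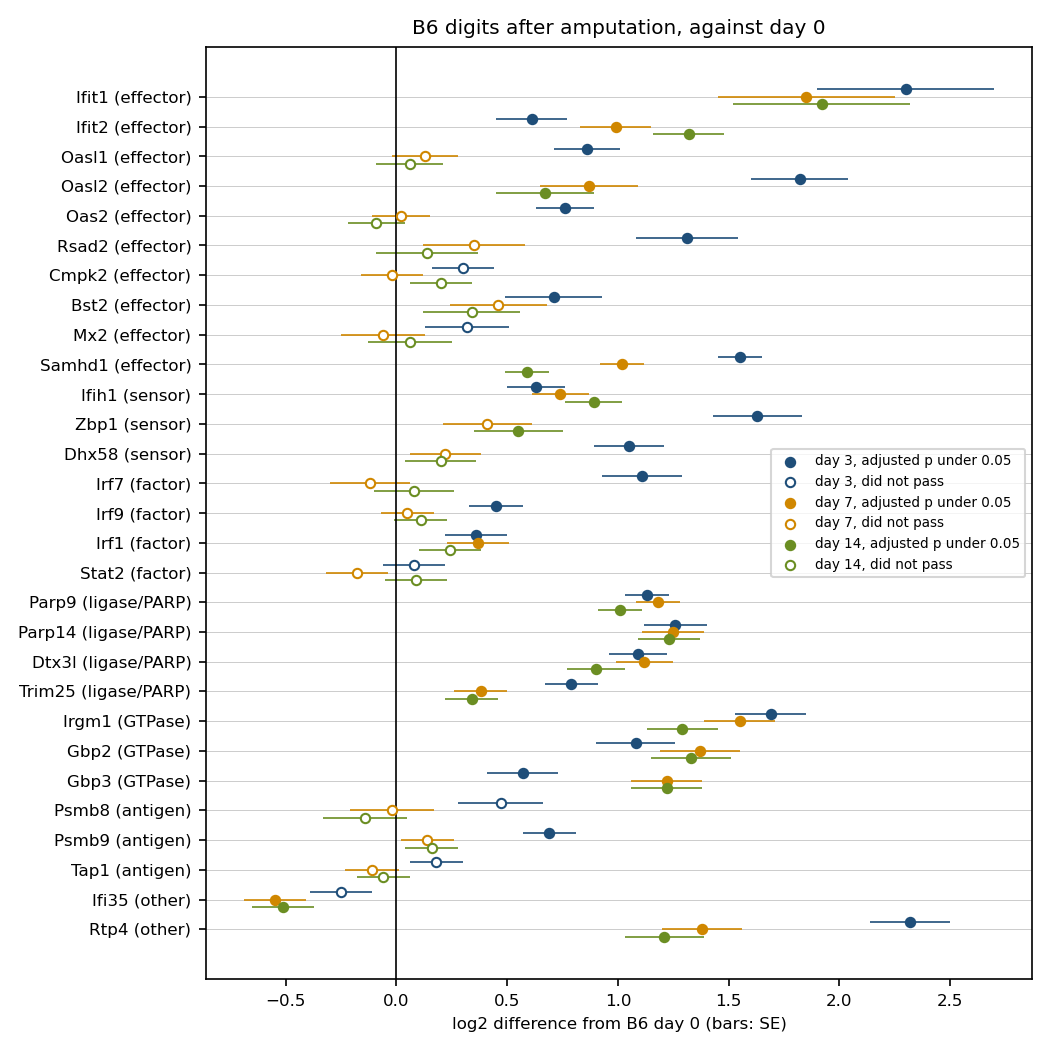
Log2 difference from day 0 in B6 (x axis) at days 3, 7 and 14 for the 29 genes (y axis, by role), with bars of 1 SE and filled points where limma's adjusted p is under 0.05. Rtp4 and Ifit1 have the largest differences at day 3, at 2.32 and 2.30, and Parp9, Parp14, Irgm1, Gbp2 and Gbp3 have differences of 1.01 to 1.33 at day 14.

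Many markers of macrophages, neutrophils and endothelium also rose by day 3 in B6, where 17.4% of all probe sets rose and 28.0% fell. Of 9 macrophage markers, 7 rose by day 3 in B6, and the mean of their log2 levels went from 9.12 to 9.34 over the day 0 arrays to 9.81 to 10.12 at day 3, 9.75 to 9.83 at day 7 and 9.55 to 9.69 at day 14. Of 7 neutrophil markers, 6 rose, and their mean went from 5.82 to 6.01 at day 0 to 9.24 to 9.78 at day 3. Of 11 markers of T and NK cells, 0 passed at day 3 in limma, with 2 at an unadjusted p under 0.05. For plasmacytoid dendritic cells, the specialised makers of type I interferon, Siglech differed by 0.00 ± 0.12 at day 3, and of the 7 markers 1 rose, Bst2 itself, and 3 fell. Of 5 dendritic cell markers 3 rose and 1 fell at day 3, and of 4 B cell markers 1 rose. Of 5 epidermis markers 1 fell, and of 4 bone and connective tissue markers 2 fell. All 4 endothelium markers were higher than at day 0 at days 3, 7 and 14, beside 17.4%, 23.5% and 22.8% of all probe sets. Their mean went from 8.10 to 8.14 over the day 0 arrays to 8.64 to 8.85, 8.92 to 9.22 and 8.76 to 8.97. The part of these cells in the interferon-induced genes was not tested.

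MRL and B6 were compared at days 7 and 14, where the labels are not in doubt. At day 7, 11 of 29 genes were lower in MRL, 0 were higher and 18 did not pass. Of all probe sets 9.46% passed, with 6.27% lower and 3.18% higher, or 6.06% and 6.42% after cyclic loess scaling. The median difference of the set was -0.38, beside -0.07 over all probe sets. At day 14, 16 genes were lower, 0 were higher and 13 did not pass, against 5.27% of all probe sets passing, 4.40% lower and 0.866% higher, or 3.99% and 2.41% after cyclic loess scaling. All 29 genes had a negative difference at day 14, with a median of -0.52 beside -0.06 over all probe sets. The 2 days share no arrays, but the single fit uses the same estimate of each gene's spread for both, so their calls are not independent. On both days 10 genes were lower, 90.9% of the day 7 list and 62.5% of the day 14 list. Over all probe sets tested, 390 were lower on both days, 39.0% and 55.6% of the 2 lists.

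The day 7 count rested on single arrays more than that of day 14. It was 4 without the second MRL day 7 array, 5 without the second B6 day 7 array, and 6 without replicate 3 of either strain. Ifit1, Ifih1, Samhd1 and Gbp2 were called whichever 1 of the 6 arrays was left out. At day 14 the count ran from 11 to 16 under such omissions, and 11 of the 16 genes kept the call in every one. Those that lost it at least once were Trim25, Ifi35, Irgm1, Irf9 and Irf7. Whether differences of DNA sequence between the strains change the binding of probes was not tested.

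Ifit1 had the largest strain difference on both days. At day 7 it stood at 5.60, 4.24 and 4.23 in MRL and at 6.49, 6.36 and 6.65 in B6, a difference of -1.81 ± 0.40 (limma adjusted p = 0.00565). At day 14 it stood at 4.39, 4.57 and 3.28 in MRL and at 5.90, 7.20 and 6.63 in B6, a difference of -2.50 ± 0.40, or 5.66-fold lower (limma adjusted p = 4.24e-04). MRL lay below B6 in every array, and at day 14 its arrays overlapped those of B6 day 0 or lay below them.

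Ifih1 stood at 6.48, 6.29 and 5.95 in MRL day 14 and at 7.47, 7.76 and 7.56 in B6 day 14, a difference of -1.35 ± 0.13 (limma adjusted p = 1.21e-06). At day 7 it was lower by 0.76, a difference of -0.76 ± 0.13. The MRL day 14 arrays of Ifih1 also lay below all B6 arrays of day 0. Ifit2 stood at 6.53, 6.36 and 6.18 in MRL day 14, against 7.53, 7.86 and 7.59 in B6, a difference of -1.30 ± 0.16 (limma adjusted p = 1.71e-05). At day 7 its arrays overlapped and it did not pass, at -0.47 ± 0.16. Oasl2 differed by -1.26 ± 0.22 at day 14, with MRL at 5.98, 6.10 and 6.06 and B6 at 7.03, 7.60 and 7.30. At day 7 its first MRL array, at 7.36, reached into B6, at 7.25, 7.72 and 7.56.

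Gbp2 was called lower in MRL on both days, while Gbp3, from the same family, did not pass on either. Gbp2 stood at 6.78, 6.47 and 6.24 in MRL day 7 and at 6.91, 6.80 and 6.47 in MRL day 14, against 7.51 to 8.10 in the B6 arrays of those days. The differences were -1.29 ± 0.18 (limma adjusted p = 8.05e-05) and -1.02 ± 0.18. Gbp3 stood at 7.80, 7.39 and 7.37 in MRL day 7, within and above the B6 range of 7.23 to 7.61, and differed by 0.13 ± 0.16. At day 14 it differed by -0.28 ± 0.16 and did not pass. The difference between Gbp2 and Gbp3 was not tested, since each rests on its own probes.

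Samhd1 was lower in MRL by 0.93 at day 7 and 0.85 at day 14 (differences of -0.93 ± 0.10 and -0.85 ± 0.10), at 8.95 to 9.08 against 9.80 to 10.06 and at 8.58 to 8.80 against 9.41 to 9.68. Bst2 differed by -0.88 ± 0.22 and -1.17 ± 0.22, and Rtp4 by -0.68 ± 0.18 and -1.23 ± 0.18. The day 7 call on Rtp4 was lost without replicate 2 or 3 of either strain (highest adjusted p = 0.108), and that on Bst2 without the second MRL array. The neighbours Dtx3l, Parp14 and Parp9 differed by -0.85 ± 0.13, -0.85 ± 0.14 and -0.52 ± 0.10 at day 14. Of the transcription factors, 0 of 4 were called at day 7 and 2 of 4 at day 14, Irf7 at -0.65 ± 0.18 (limma adjusted p = 0.0377) and Irf9 at -0.46 ± 0.12. The call on Irf7 was lost after cyclic loess (adjusted p = 0.0749) and quantile scaling (0.105) and with a replicate block (0.0513). Of the antigen processing genes, 0 of 3 passed on either day, with differences of -0.30 to 0.01.

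**Figure D4:**
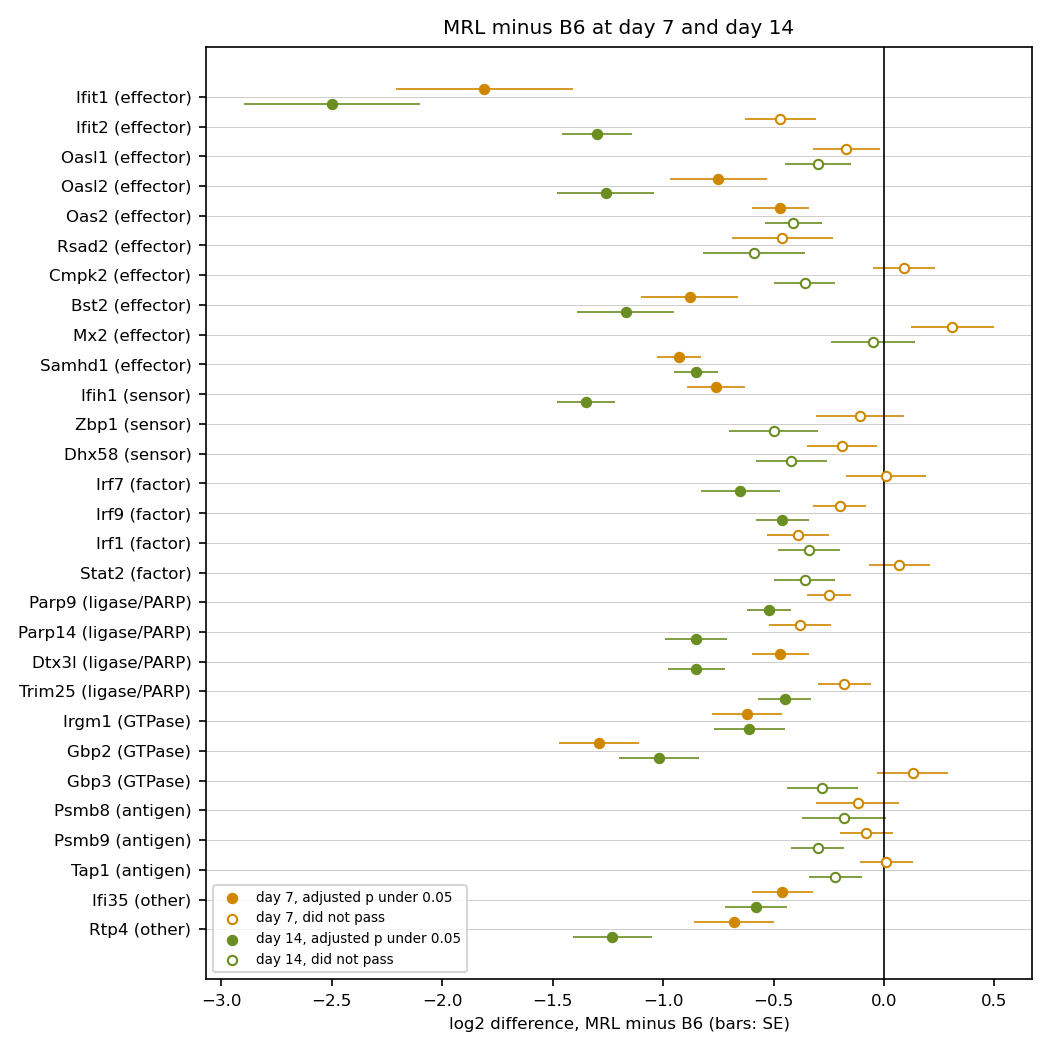
Log2 difference MRL minus B6 (x axis) at days 7 and 14 for the 29 genes (y axis, by role), with bars of 1 SE and filled points where limma's adjusted p is under 0.05. All day 14 points lie left of 0, with Ifit1 farthest at -2.50, and the antigen processing genes lie between -0.30 and 0.01.

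Between days 7 and 14 in MRL, 5 genes fell and 0 rose, beside 3.54% of all probe sets passing, 1.79% falling and 1.75% rising. Dtx3l went from 7.30, 7.26 and 7.19 to 6.62, 6.66 and 6.65, with no overlap, a difference of -0.61 ± 0.13 (limma adjusted p = 0.00906). Rtp4 fell by 0.72 ± 0.18, Parp14 by 0.50 ± 0.14, Parp9 by 0.43 ± 0.10 and Samhd1 by 0.36 ± 0.10. The count was 1 without the first MRL day 7 or the second MRL day 14 array, 2 without the second MRL day 7 array and 3 without replicate 1 or 3 of MRL day 14. Dtx3l kept the call in each of these. By replicate, the medians over the 29 genes were 7.30, 6.89 and 7.10 at day 7 and 6.90, 6.69 and 6.82 at day 14.

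Whether the change from day 7 to day 14 differed between the strains was tested directly. In limma 0 of 29 genes passed, and 8 had an unadjusted p under 0.05, beside 0.264% of all probe sets called (0.0942% higher, 0.170% lower). The lowest adjusted p was that of Ifit2, 0.199, at a difference of -0.83 ± 0.22. The wider strain gap at day 14 than at day 7 is therefore not shown for any gene of the set.

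Most macrophage markers, and some of other cells, were also lower in MRL, where 6.27% of all probe sets were lower at day 7 and 4.40% at day 14. Of 9 macrophage markers, 5 were lower and 1 was higher (by 0.40) in MRL at day 7, and 6 were lower at day 14, with median differences of -0.57 and -0.53. Their mean log2 levels in MRL were 9.25 to 9.45 at day 7 and 8.89 to 9.18 at day 14. Adgre1 (F4/80) differed by -1.01 ± 0.19 and Csf1r by -0.47 ± 0.10 at day 14. Of 7 neutrophil markers 2 were lower on each day, and of 11 T and NK cell markers 1, Gzmb, was lower on each day, with Cd3g higher at day 7. Of 5 dendritic cell markers 2, Flt3 and Cd209a, were lower on each day. Of 7 plasmacytoid dendritic cell markers 2 were lower at day 7 and 1 at day 14, with Bst2 itself among them on each day. Of 4 B cell markers 0 were lower at day 7 and 1 at day 14. Of 5 epidermis markers 1 was lower at day 7 and 0 at day 14. Of 4 bone and connective tissue markers 0 passed on either day. Of 4 endothelium markers 2, Kdr and Tek, were lower on each day, with means of 8.62 to 8.86 at day 7 and 8.31 to 8.56 at day 14 in MRL. The part of these cells in the lower interferon-induced genes of MRL was not tested.

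Interferon-induced genes also differed between the MRL groups whose labels are in doubt. In the arrays labelled MRL day 0, 21 of 29 genes were higher than in those labelled MRL day 3, 0 were lower and 8 did not pass, beside 20.5% of all probe sets passing, 7.15% higher and 13.4% lower, or 10.8% and 9.44% after cyclic loess scaling. Rtp4 stood at 8.61, 8.14 and 8.74 in the first of these groups and at 6.85, 7.10 and 6.82 in the second, a difference of 1.58 ± 0.18 (limma adjusted p = 1.47e-06). Ifit1 stood at 6.72, 6.23 and 7.04 and at 4.95, 4.45 and 5.48, a difference of 1.71 ± 0.40. Both groups of arrays were clear of each other for these genes. Samhd1 differed by 1.00 ± 0.10 and Irgm1 by 0.98 ± 0.16. Gbp2, at 0.14 ± 0.18, and Ifit2, at 0.27 ± 0.16, did not pass.

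Read by their labels, these arrays gave opposite strain differences. The arrays labelled MRL day 0 were higher than B6 day 0 for 19 genes and lower for 1, Ifi35, beside 40.0% of all probe sets passing, 17.9% higher and 22.1% lower. The arrays labelled MRL day 3 were lower than B6 day 3 for 23 genes and higher for 0, beside 40.6% of all probe sets passing, 13.6% lower and 27.1% higher, or 21.1% and 18.9% after cyclic loess scaling. Rtp4 differed by -2.41 ± 0.18, Oasl2 by -2.17 ± 0.22 and Samhd1 by -2.08 ± 0.10 in that comparison. These directions rest on the labels in doubt.

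Set across labels, the differences were smaller. The arrays labelled MRL day 3 differed from B6 day 0 in 5 genes, Parp9 (0.55 ± 0.10) and Gbp3 (0.44 ± 0.16) being higher and Ifi35 (-0.70 ± 0.14), Bst2 (-0.59 ± 0.22) and Samhd1 (-0.53 ± 0.10) lower, beside 30.3% of all probe sets passing, 18.0% higher and 12.3% lower, or 16.3% and 18.6% after cyclic loess scaling. The call on Bst2 was lost whichever 1 of the 6 arrays was left out (highest adjusted p = 0.135). The count was 3 without any 1 of the 3 B6 day 0 arrays or replicate 2 or 3 of those labelled MRL day 3. The arrays labelled MRL day 0 were lower than B6 day 3 in 10 genes and higher in 0, beside 10.9% of all probe sets passing, 4.06% lower and 6.87% higher, or 7.97% and 5.39% after cyclic loess scaling. The lower genes were led by Oasl2 at -1.22 ± 0.22, Samhd1 at -1.08 ± 0.10 and Zbp1 at -0.91 ± 0.20, and the count was 5 without the first or second B6 day 3 array. Ifi35 was called lower in MRL in each comparison with B6 named here, but the day 7 call was lost whichever 1 of the 6 arrays was left out (highest adjusted p = 0.151) and without the arrays of doubtful label (0.0696). With the compared arrays alone it was also lost at day 14 (0.0674) and in the comparisons with B6 day 3 (0.102 for the arrays labelled MRL day 0, 0.0728 for those labelled MRL day 3).

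The measured ligands of the pathway did not pass a test by day 3. Several listed interferon genes, among them Ifna2, Ifna5 and the type III genes Ifnl2 and Ifnl3, were given no values. Of 9 interferon genes measured, among them Ifnb1, Ifna4 and Ifng, 0 changed in limma at day 3 or day 7 in B6, 1 fell at day 14 (Ifnz, -0.54), and 0 passed between the strains at days 7 and 14. Of all probe sets, 45.4%, 42.9% and 37.0% passed at days 3, 7 and 14 in B6, and 9.46% and 5.27% between the strains. At an unadjusted p under 0.05, too, the count of interferon genes was 0 at days 3 and 7 and between the strains. Ifnb1 differed by -0.30 ± 0.18 and Ifng by 0.07 ± 0.12 at day 3. Their log2 levels ran from 2.33 to 7.12 over the 24 arrays. The mean over the 9 genes was low in every array, at 4.55 to 5.13.

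The receptors did move. Of 9 receptor chains and Janus kinases, 7 rose and 2 fell by day 3 in B6. Of all probe sets, 17.4% rose and 28.0% fell. Ifnar2 and Ifnar1, the chains of the type I receptor, rose by 1.24 ± 0.10 and 0.99 ± 0.09, and Ifngr1 and Ifngr2, those of the interferon gamma receptor, by 0.90 ± 0.11 and 0.92 ± 0.10. Il10rb, which also serves interleukin 10, rose by 1.39 ± 0.12. Ifnlr1, the chain particular to type III interferons, and the kinase Tyk2 fell, with differences of -0.71 ± 0.13 and -0.40 ± 0.11. Between the strains, 1 of 9 was lower in MRL at day 7 (Ifngr1, -0.42 ± 0.11), beside 6.27% of all probe sets. At day 14, 0 of 9 passed in limma, beside 5.27% of all probe sets, and 5 of the 9 had an unadjusted p under 0.05.

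A list of 26 further interferon-induced genes, outside the set, was examined as well. Like the set, it was chosen with earlier results of these data known. By day 3 in B6, 17 rose and 0 fell, beside 17.4% of all probe sets rising and 28.0% falling. The largest rises were those of Trim30a (2.96 ± 0.18), Slfn2 (2.62 ± 0.13) and Slfn1 (2.38 ± 0.16). Trim30a is a ligase of the tripartite motif family, and the Schlafen genes Slfn1 and Slfn2 are known for the control of immune cell growth. The chemokine Cxcl10, which draws T cells, rose by 1.17 ± 0.20, and its relatives Cxcl9 and Cxcl11 differed by 0.14 ± 0.20 and 0.23 ± 0.31 and did not pass. In MRL against B6, 7 were lower at day 7 and 11 at day 14, with 0 higher on either day. Of all probe sets, 6.27% were lower at day 7 and 4.40% at day 14. At day 14 Trim30a differed by -1.27 ± 0.18, Gbp7 by -1.23 ± 0.16, Slfn8 by -1.05 ± 0.16 and Lgals3bp by -0.99 ± 0.19.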

How the data were processed

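Levels of 24 arrays were read from the deposited value table. Per the submitters' processing notes, the authors summarised the arrays with RMA in Affymetrix Expression Console on the mm8 build. Each deposited value is a linear intensity, and the table runs from 3.99 to 12789; the step from RMA's log values to this scale is not stated in the labels. They were turned to log2 here with no further scaling, and the array medians then ranged over 0.356 in log2. That range is as large as some of the smaller differences given above. Gene names came from the platform's probe table: of 16661 probe sets, 14939 had 1 symbol, 989 several and 733 none. By Entrez identifier, 14884 matched GRCm38.p6 and 55 did not.

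The 8 groups each had a mean in a single moderated linear model (lmFit and eBayes of limma 3.58.1, in R 4.3.3), with 16 residual and 4.62 prior degrees of freedom. It gave 14 comparisons, with two-sided p-values adjusted by Benjamini-Hochberg over 15928 probe sets with a symbol and a threshold of 0.05. The fit was also run on simulated data with independent noise and few changed probe sets. That run does not measure error rates in these data. The genes, their roles, the pathway and marker lists and the comparisons were chosen with earlier results of these data known. Every measured gene of the set may be named; of the pathway and marker lists, the largest changes and the genes that define a list are named. RIG-I stands in the table under its older symbol.

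The labels call the replicates biological but do not name animals, so p-values measure the spread between these arrays. They give no batch. Arrays with the same replicate number were not treated as pairs: the correlation of their residuals was above 0.1 in 10 of 84 cases. Alternatives were cyclic loess and quantile scaling, array weights, a fit of the compared arrays alone, a replicate block, a mean log2 of at least 6, each array left out, and, added after the data were seen, a fit without the arrays labelled MRL day 0 and day 3.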

Additional observations from a re-analysis of the deposited data

How the results depend on the processing

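No called difference of the set's genes reversed its sign under the alternatives run. Cyclic loess, quantile scaling and the replicate block left every count of called genes within 1.5 times. For MRL day 14 minus day 7 (5 genes), array weights gave 11, the compared arrays alone 1, and the fit without the arrays labelled MRL day 0 and day 3 gave 3. Fitting the compared arrays alone, with fewer degrees of freedom, gave 10 for MRL minus B6 at day 14 (16), 4 for the arrays labelled MRL day 0 minus B6 day 3 (10) and 0 for B6 day 14 minus day 7 (1). The counts with the replicate block were 23 for B6 day 3 minus day 0, 15 for days 7 and 14 minus day 0, 13 for day 7 minus day 3, 11 and 15 for MRL minus B6 at days 7 and 14, 4 for MRL day 14 minus day 7, and 0 for the strain difference in the change from day 7 to day 14. The block ended 6 calls: Irf7 in MRL minus B6 at day 14 (adjusted p = 0.0513), Parp14 in MRL day 14 minus day 7 (0.0594), Bst2 in labelled MRL day 3 minus B6 day 0 (0.0533), Gbp2 in labelled MRL day 0 minus B6 day 0 (0.0554), and Mx2 (0.0551) and Trim25 (0.0566) between the arrays labelled MRL day 0 and day 3. It added 1, Cmpk2 in labelled MRL day 3 minus B6 day 3 (0.0468). Leaving out each array in turn gave 21 to 24 genes for B6 day 3 minus day 0, 13 to 15 for day 7, 12 to 15 for day 14, 11 to 18 for day 7 minus day 3 and 0 to 1 for day 14 minus day 7. It gave 4 to 10 for MRL minus B6 at day 7, 11 to 16 at day 14, 1 to 5 for MRL day 14 minus day 7 and 0 throughout for the strain difference in that change. With the arrays labelled MRL day 0, the ranges were 15 to 20 against B6 day 0, 5 to 13 against B6 day 3 and 14 to 19 against those labelled MRL day 3. With the arrays labelled MRL day 3, they were 3 to 4 against B6 day 0 and 22 to 25 against B6 day 3. A mean log2 of at least 6 removed Ifit1 and Mx2, the dimmest genes of the set, whose folds depend most on background. Where no cause is given, it was not tested.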

Other observations

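The sensors and adaptors that lie upstream of interferon moved in B6 as well. Of 15 measured, 10 rose and 2 fell by day 3, beside 17.4% of all probe sets rising and 28.0% falling. Tlr8, an endosomal RNA receptor, rose by 1.42 ± 0.14, Sting1, the adaptor of the DNA sensor cGAS, by 1.40 ± 0.17, and Tlr7 by 1.06 ± 0.17. Rigi, the RNA sensor RIG-I, rose by 0.89 ± 0.14. The adaptor Mavs and the factor Irf3 fell, with differences of -0.40 ± 0.14 and -0.37 ± 0.12. In MRL against B6, 3 of the 15 were lower at day 7 (Sting1, Myd88 and Tlr8) and 5 at day 14. Of all probe sets, 6.27% were lower at day 7 and 4.40% at day 14. At day 14 Tlr8 differed by -1.06 ± 0.14, Tlr3 and Sting1 by -0.69 each, Rigi by -0.67 ± 0.14 and the kinase Ikbke by -0.47 ± 0.12 (limma, adjusted p of 0.0172 or less).

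Of 6 further transcription factors and inhibitors, 2 rose, 1 fell and 3 did not pass by day 3 in B6. Of all probe sets, 17.4% rose and 28.0% fell. Irf8, a factor of myeloid cells, rose by 1.25 ± 0.13 and the inhibitor Socs3 by 0.88 ± 0.20. Socs1 fell, with a difference of -0.56 ± 0.16. Between the strains, 0 of the 6 passed at day 7 or day 14 in limma, and 0 had an unadjusted p under 0.05. Of all probe sets, 9.46% passed at day 7 and 5.27% at day 14.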
